A study of Mus musculus with 5 samples.

Results

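The genes described here are 10 genes whose expression in hepatocytes around the central vein depends on Wnt signalling, or which carry that signal: Glul, Slc1a2, Rhbg, Cyp1a2, Axin2, Lgr5, Rnf43, Znrf3, Tbx3 and Ctnnb1. They were chosen by symbol, and every non-control probe whose RefSeq identifier maps to one of these symbols was taken. All 10 genes were found, with 14 of the 41174 non-control probes on the array, which names 17016 genes in all. Of the 14 probes, 10 passed the filter for testing, and they belong to 8 genes. Cyp1a2 and Axin2 have no probe among them, for reasons given with their values.

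In the liver, endothelial cells of the central vein secrete Wnts and R-spondin 3, and the hepatocytes next to them respond by stabilising beta-catenin, which enters the nucleus and acts with TCF/LEF factors. These pericentral hepatocytes make glutamine from ammonia and carry much of the drug-metabolising P450 activity, whereas periportal hepatocytes carry urea synthesis and gluconeogenesis. The ubiquitin ligases Rnf43 and Znrf3 remove Wnt receptors from the cell surface, and R-spondins, bound by Lgr receptors, hold those ligases back.

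Each of 5 arrays set cDNA from a liver sample, labelled with Cy5, against cDNA from a purchased mouse RNA, labelled with Cy3. The 5 samples, called livers 1 to 5, are from male mice of strain C57BL/6N that were fed ethanol over 8 weeks and also received 3 binges of it, at 5 g/kg. The labels name no genetic change and no age, and do not say that each sample is a different animal. The number n is therefore one of samples, and a p-value reflects their spread alone, which could be technical. The reference is named in the labels as an assorted total RNA, with C57BL/6N as its strain and liver as its tissue. The same reference serves every array, no array had the dyes exchanged, and no control-diet group was analysed here. A ratio below therefore compares these livers with that RNA, holds any dye effect of the probe, leaves out the spread of the reference and gives no effect of ethanol. In such bulk samples, fewer cells of a type and less RNA per cell cannot be told apart.

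Array 1 was the dimmest in both channels, with median background-subtracted signals of 78.4 (liver) and 75.5 (reference), and the other 4 arrays reached up to 177 and 151. No spot was saturated, and the number of arrays limits the precision. All 6 hepatocyte markers on the array were well above background in every liver, with summed signals between 494303 and 573532. Summed signals of 10 sinusoidal endothelial markers were between 4147 and 6057, and of 9 Kupffer cell markers between 7309 and 9992. Those of 7 bile duct markers were between 8218 and 15391, and of 8 stellate cell markers between 10371 and 15554. Of the Kupffer cell markers, 1 was not well above background in every liver. All these sums are of signals before normalization, so brightness differences between arrays enter them, and they are not a measure of cell content. Among the tested named genes, 27.5% passed the test against the reference (adjusted p under 0.05), 14.5% higher and 13% lower, and their median log2 ratio was -0.02.

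Promoter sequence was held in RefSeq tables of build GRCm38.p6 for 6 of the 10 genes. The stretch before the start site is shown for Glul, Slc1a2 and Cyp1a2, the genes of a glutamine enzyme, a glutamate transporter and a P450 whose ratios are given below. Capitals mark the core that TCF/LEF factors are known to bind, CTTTGA, searched on both strands (TCAAAG on the other), with no overlap between matches. Each sequence is written 5′ to 3′ along its gene and ends at the base before the start site.
Glul, chr1:153899679-153899928, plus strand: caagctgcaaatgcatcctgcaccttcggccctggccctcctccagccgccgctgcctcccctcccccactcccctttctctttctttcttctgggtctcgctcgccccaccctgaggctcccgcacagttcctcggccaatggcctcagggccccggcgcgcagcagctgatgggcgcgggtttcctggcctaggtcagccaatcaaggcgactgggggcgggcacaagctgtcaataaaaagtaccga
Slc1a2, chr2:102706188-102706437, plus strand: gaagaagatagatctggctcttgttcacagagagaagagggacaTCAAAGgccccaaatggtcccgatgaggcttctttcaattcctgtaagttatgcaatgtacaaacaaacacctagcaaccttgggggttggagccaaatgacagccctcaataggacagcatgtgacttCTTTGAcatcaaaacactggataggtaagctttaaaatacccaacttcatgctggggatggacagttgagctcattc
Cyp1a2, chr9:57683656-57683905, minus strand: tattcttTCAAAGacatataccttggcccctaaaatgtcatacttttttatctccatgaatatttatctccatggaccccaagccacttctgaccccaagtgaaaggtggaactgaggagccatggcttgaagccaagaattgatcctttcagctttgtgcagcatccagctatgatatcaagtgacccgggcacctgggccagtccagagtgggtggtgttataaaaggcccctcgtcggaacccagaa
The Slc1a2 window held 2 matches, whose first bases are at positions -206 and -77 from the start site, and the Cyp1a2 window held 1, at position -243. No match was found in the Glul window, nor in those of Axin2, Rnf43 (2 start sites) and Ctnnb1 (2 start sites). The core was present in 13.8% of 32851 promoter windows of the same length. A match is a description of letters and not a bound site, and the distal enhancers of these genes are outside the windows.

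Of the 3 genes of ammonia, glutamate and glutamine handling, Rhbg and the brighter Slc1a2 probe were below the reference in all 5 livers, as were 18.5% of all tested named genes, and Glul was not. Rhbg encodes an ammonium transporter of the hepatocyte membrane. Its signal was 381 in liver 1, 687 in liver 2, 1401 in liver 3, 1197 in liver 4 and 915 in liver 5, against 742, 1315, 1602, 1710 and 1803 in the reference channel of the same arrays. The liver channel was the dimmer on every array, and the gap was narrowest in livers 3 and 4. After normalization the log2 ratios were -0.94, -0.84, -0.46, -0.18 and -0.46 in livers 1 to 5, a mean of -0.58 ± 0.31 (SD, n = 5), or 1.49-fold lower. Rhbg passed the test (limma, Benjamini-Hochberg adjusted p = 0.0071 over 31885 probes) and stood at percentile 1.71 of all tested probes by ratio. It passed in each of 15 alternative settings, with means between -0.72 and -0.49 and adjusted p between 0.0004 and 0.0267.

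Slc1a2 encodes the glutamate transporter GLT-1, which pericentral hepatocytes share with astrocytes. The brighter of its 2 probes gave log2 ratios of -0.51, -0.41, -0.42, -0.05 and -0.35 in livers 1 to 5, a mean of -0.35 ± 0.18 (SD, n = 5), or 1.27-fold lower, and passed (limma adjusted p = 0.0158). All 5 livers were below the reference, liver 4 by the least. The second probe gave -0.28, -0.36, -0.28, 0.24 and -0.32, a mean of -0.20 ± 0.25 (SD, n = 5) that did not pass (limma adjusted p = 0.164). Both probes put liver 4 highest, and within a liver they differed by at most 0.29. Both results changed with the choice of samples: the first probe no longer passed without liver 3 (-0.33, limma adjusted p = 0.0505), and the second passed without liver 4 (-0.31, adjusted p = 0.0489). With both probes averaged the gene stood at -0.27 and did not pass (limma adjusted p = 0.0534). Of 10 astrocyte and brain markers, 8 were well above background in every liver, with summed signals between 7857 and 16469, while the glutamate transporter Slc1a3 was well above background in no liver. Those sums, taken before normalization, were lowest in livers 5 and 1 and highest in liver 3. Array 3 was also the brightest in the liver channel. In the reference channel 8 of the 10 markers were well above background on every array too. The median signal of the 10 markers was 254 in the reference and 185 in liver. After normalization the tested markers of this list averaged log2 ratios of -0.11, 0.14, 0.01, 0.03 and -0.24 in livers 1 to 5. The part of these markers in the Slc1a2 ratio was not tested.

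Glul encodes glutamine synthetase, which in the liver is restricted to the innermost pericentral hepatocytes. Its brighter probe had signals of 18705, 31698, 37032, 29646 and 30244 in livers 1 to 5 against 25933, 29442, 34723, 38438 and 41774 in the reference. The log2 ratios were -0.50, 0.12, -0.15, -0.13 and -0.00, a mean of -0.13 ± 0.23 (SD, n = 5) that did not pass (limma adjusted p = 0.304). Liver 1 was lowest and liver 2 highest. The scanner software's own processed signals gave a mean of -0.30, which passed (limma adjusted p = 0.0275), and the deposited table gave the same mean and passed as well (adjusted p = 0.0287). The second Glul probe had a usable spot only in liver 3, at -0.41. Its liver-channel spots in the other 4 livers were marked as non-uniform, in liver 2 together with the reference channel. With those spots kept it read -0.38, -0.11, -0.40, -0.30 and -0.28, a mean of -0.29 ± 0.11 (SD, n = 5; limma adjusted p = 0.0162). The side of the threshold on which Glul falls thus differed between settings. The mean of the brighter probe was below 0 in each of 15 alternatives, between -0.30 and -0.04. Those that changed only the filter, the variance prior or the probe choice left that mean as it was.

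**Figure D1:**
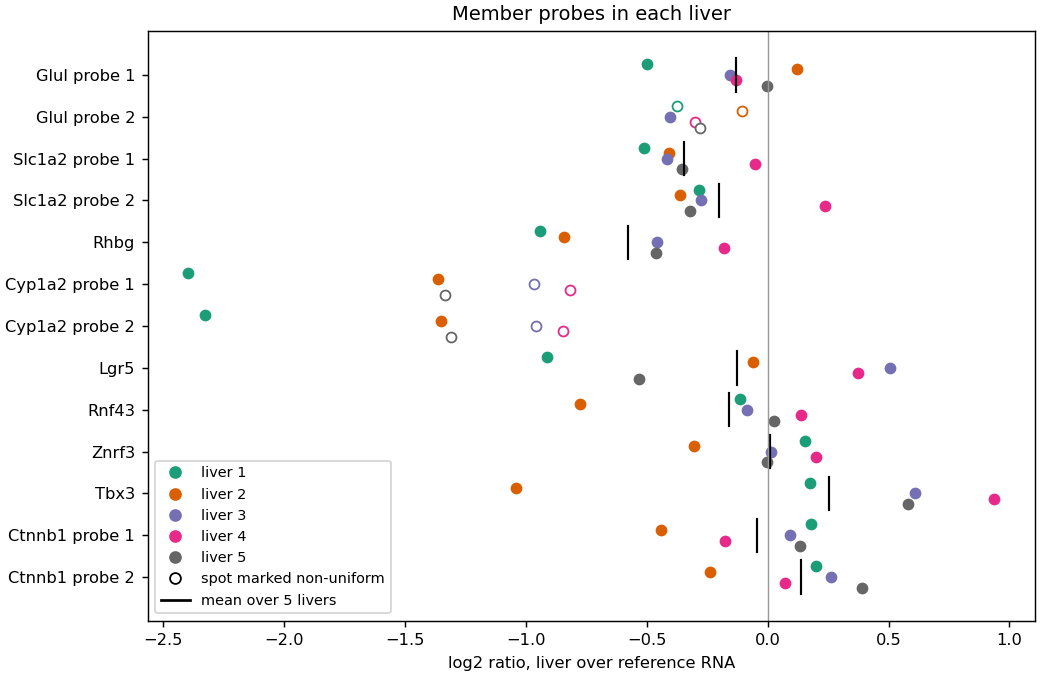
Log2 ratio of liver over reference RNA on the horizontal axis for 13 probes of 9 genes (Axin2 was too dim to show), with a point for each liver, open where the spot was marked non-uniform and not used, and a bar at the mean of usable values. Rhbg lies left of 0 in all 5 livers, the 2 Cyp1a2 probes lie furthest left, and liver 2 is the lowest point for Rnf43, Znrf3, Tbx3 and both Ctnnb1 probes.

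Cyp1a2 showed the lowest ratios of the 10 genes, on spots that were partly set aside. The gene encodes a pericentral P450 that oxidises caffeine and aromatic amines and is induced through the aryl hydrocarbon receptor. Both of its probes were usable only in livers 1 and 2, where the first probe read -2.40 and -1.37 and the second -2.33 and -1.35. In livers 3 to 5 the liver-channel spots of both probes were marked non-uniform, so neither probe reached the 3 values needed for a test. The reference channel was marked as well in livers 3 and 4 on the first probe and in livers 4 and 5 on the second. With the marked spots kept, the first probe read -2.43, -1.39, -0.97, -0.82 and -1.34 in livers 1 to 5, a mean of -1.39 ± 0.63 (SD, n = 5), or 2.62-fold lower (limma adjusted p = 0.00289 over 32775 probes). The second probe then read -2.36, -1.38, -0.96, -0.85 and -1.31, a mean of -1.37 ± 0.60 (SD, n = 5; adjusted p = 0.00253). All 5 livers were below the reference on both probes, and liver 1 was lowest on both, 5.41-fold and 5.12-fold below the reference. The deposited table, which holds 5 values for the first probe, gave -1.40 (limma adjusted p = 0.00396).

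The signals behind these ratios show where the livers part. On the first Cyp1a2 probe the reference channel read 4205 on array 1 and between 7459 and 7993 on the others, and the liver channel read 762, 2859, 4272, 3546 and 2143 in livers 1 to 5. Liver signals therefore spanned 5.6-fold and reference signals 1.9-fold, with the marked spots of livers 3 to 5 included. These are signals before normalization, and array 1 was the dimmest array in both channels. Other targets of the aryl hydrocarbon receptor were listed as well. Of 7 listed, 3 were tested: Nqo1, a quinone reductase, passed at -0.42 ± 0.13, Aldh3a1, an aldehyde dehydrogenase, passed at 0.29 ± 0.14, and Tiparp, a mono-ADP-ribosyltransferase, stood at -0.63 ± 1.15 and did not pass (SD, n = 5 each; limma adjusted p = 0.0025, 0.0198 and 0.277). The size of the Nqo1 difference depended on the background correction, at -0.65 with offset 10 and -1.11 with the processed signals. The Aldh3a1 call was lost without liver 2, 3 or 4 (adjusted p = 0.0597, 0.0570 and 0.0756). Tiparp read -0.63, 1.28, -1.59, -1.43 and -0.81 in livers 1 to 5. Cyp1a1, the P450 most used as a readout of that receptor, was not well above background in either channel on any array. The part of the receptor in the Cyp1a2 ratios was not tested.

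**Figure D2:**
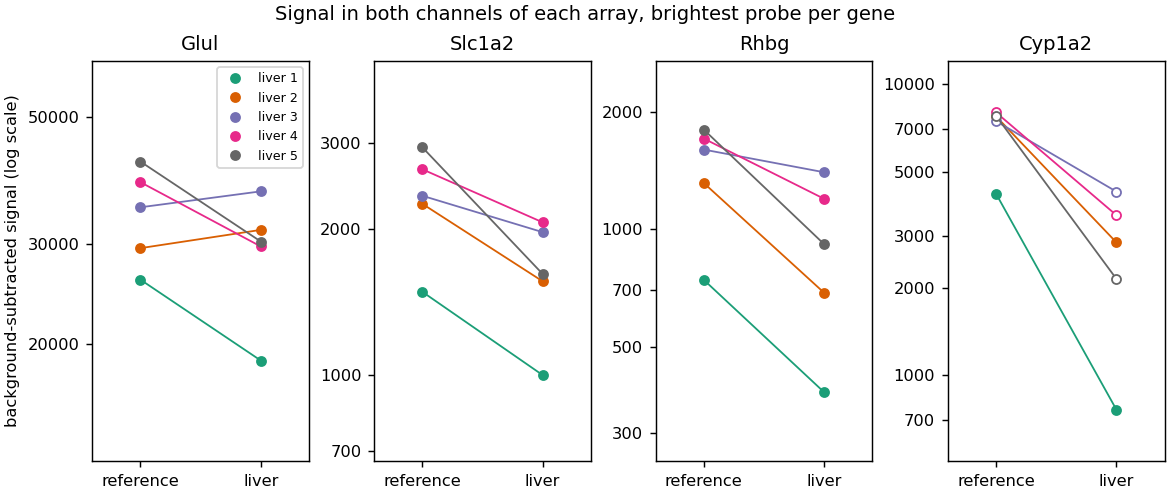
Background-subtracted signal on a log axis in the reference and liver channels of each array for the brightest probe of Glul, Slc1a2, Rhbg and Cyp1a2, with a line joining the channels of an array and open points where the spot was marked non-uniform. For Cyp1a2, Rhbg and Slc1a2 every line falls from reference to liver, and array 1 is the dimmest in both channels of all 4 panels.

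Axin2, Lgr5, Rnf43 and Znrf3 are target genes of the pathway that act back on it. None of the 3 that could be tested passed. Axin2, a scaffold of the beta-catenin destruction complex and a general Wnt target, was not well above background in either channel on any array, with signals of 7.20 to 17.6 in liver and of 1.17 to 12.3 in the reference. No ratio is given for it. Lgr5, the R-spondin receptor, had signals of 90.9, 137, 280, 163 and 174 in livers 1 to 5 against 211, 131, 140, 124 and 381 in the reference. Its log2 ratios were -0.91, -0.06, 0.51, 0.37 and -0.53, with livers 1 and 5 well below the reference and livers 3 and 4 above it. The mean of -0.13 ± 0.60 (SD, n = 5) did not pass (limma adjusted p = 0.670), and its direction depended on single samples, at 0.07 without liver 1 and -0.28 without liver 3. In the reference channel, to which the same RNA was applied throughout, the arrays of livers 1 and 5 had the brightest Lgr5 spots.

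Rnf43 read -0.11, -0.77, -0.08, 0.14 and 0.03 in livers 1 to 5, a mean of -0.16 ± 0.36 (SD, n = 5; limma adjusted p = 0.356). Without liver 2 that mean was -0.01, and with the processed signals -0.34. Its signal in liver 2 was 60.8, against 105 to 210 in the other livers, while the reference stayed between 116 and 163. Znrf3, with signals between 29.5 and 121 in the livers, read 0.15, -0.30, 0.01, 0.20 and -0.00, a mean of 0.01 ± 0.20 (SD, n = 5; limma adjusted p = 0.924). In the reference channel its spot was well above background on 4 of the 5 arrays. Both ligases were lowest in liver 2.

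Tbx3 and Ctnnb1 stand at the nuclear end of the pathway. Tbx3, a transcription factor and beta-catenin target of pericentral hepatocytes, had signals of 351, 141, 638, 544 and 441 in livers 1 to 5, against 288 to 362 in the reference. Its log2 ratios were 0.17, -1.04, 0.61, 0.94 and 0.58, above the reference in 4 livers and below it in liver 2. The mean of 0.25 ± 0.77 (SD, n = 5) did not pass (limma adjusted p = 0.507). Without liver 2 it was 0.58 and passed (adjusted p = 0.0186), so the call rests on that sample being left in or out.

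Ctnnb1 encodes beta-catenin itself, whose activity is set mainly by the stability of the protein. The probe spotted once read 0.18, -0.44, 0.09, -0.18 and 0.13, a mean of -0.04 ± 0.26 (SD, n = 5; limma adjusted p = 0.779). The other probe, spotted 10 times on each array, read 0.20, -0.24, 0.26, 0.07 and 0.39, a mean of 0.14 ± 0.24 (SD, n = 5; adjusted p = 0.320). Between 5 and 10 of its spots were usable per array and give a measure of error within an array: their SD was between 0.064 and 0.090, and in liver 2 all 10 spots lay between -0.37 and -0.09. The probes differed by at most 0.26 in a liver and put the other livers in different orders.

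Counted by gene, 2 of the 8 tested members passed as lower, Rhbg and Slc1a2, and 0 as higher, against 13% lower and 14.5% higher among 14915 tested named genes. No member passed at 2-fold or more, where the shares over all genes were 0.429% lower and 0.865% higher. The median of the 8 genes was -0.13, beside -0.02 for all genes, whose quartiles were -0.17 and 0.16. With outlier spots kept, 3 of 9 genes passed as lower, Cyp1a2 among them and at 2-fold or more. The deposited table gave 4 of 9. The lower count was 1 without liver 3 and 2 without any other single liver.

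How much the ratios varied over the 5 arrays was asked with a test of each probe's variance against that of probes of like brightness. Variation of the reference channel enters these ratios, so the test is not one of the livers alone. Before normalization, Lgr5 signals spanned 3.08-fold in the reference and 3.08-fold in liver. Those of Tbx3 spanned 1.26-fold in the reference and 4.52-fold in liver. None of the 9 member probes in that test passed after adjustment, beside 0% of 25890 probes. Before adjustment 1537 of all probes were under 0.05, and 2 of the 9 member probes. These were the probes of Tbx3 (F test adjusted p = 0.541) and Lgr5 (F test adjusted p = 0.656). By SD over livers, Tbx3 stood at percentile 98.7 and Lgr5 at 97.2 of 13201 named genes, whose median SD was 0.19, and Rnf43 and Rhbg at 87.7 and 82.5. With median centring in place of loess, Lgr5 passed (adjusted p = 0.0371), as did 132 of the 13201 genes.

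The members fell into different orders across livers. Rnf43, Znrf3, Tbx3 and both Ctnnb1 probes were lowest in liver 2, under each of 7 ways of making the ratios. Among 13697 named genes with 5 values, 27.7% were lowest in liver 2, the largest share of any liver. The second Slc1a2 probe was lowest in liver 2 as well, but in liver 5 with median centring or with arrays scaled to each other. Glul, Rhbg, Lgr5 and the brighter Slc1a2 probe were lowest in liver 1, as was Cyp1a2 with marked spots kept, beside 21.6% of all genes. That second order depended on normalization: with median centring Lgr5 stayed lowest in liver 1, whereas Glul, Rhbg and both Slc1a2 probes were lowest in liver 5, and Cyp1a2 had too few usable spots to be placed. With the processed signals and in the deposited table Rhbg was lowest in liver 2. These orders were noticed in the data and are given as descriptions without a test.

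**Figure D3:**
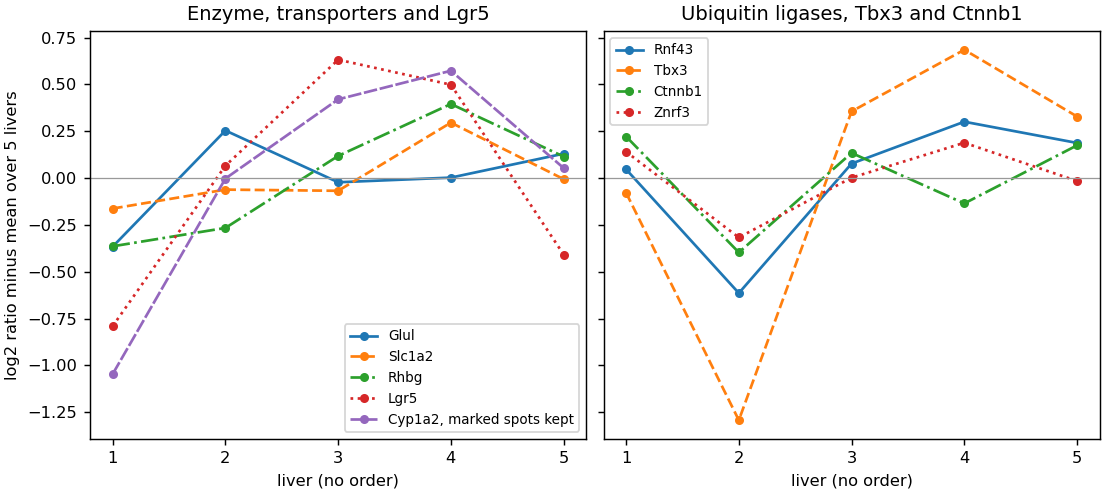
Log2 ratio of each gene minus its own mean over the 5 livers, by its brightest tested probe (for Cyp1a2, which has none, its brighter probe with marked spots kept), with lines only to join the points of a gene since the livers have no order. On the right all 4 genes are lowest in liver 2, and on the left all 5 are lowest in liver 1, an order that Lgr5 kept with median centring and Glul, Slc1a2 and Rhbg did not, while Cyp1a2 could not be set there.

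By the nearest pattern over the 5 livers, measured as the root mean square difference of centred log2 ratios, Glul was closest to Cd99 at 0.031, Egr3 at 0.049, Ces5a at 0.049, Cd36 at 0.057 and Olfr66 at 0.059, out of 6589 candidates of like or larger spread. No member was among these 5 genes. With 5 samples and so many candidates, close matches are a description only. They were sought only after loess, where Glul was lowest in liver 1. With median centring Glul was lowest in liver 5, and no matches were sought there.

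The rest of the pathway was described through lists of genes by role. Of 92 listed genes in 5 lists, 76 were tested, 4 passed as lower and 8 as higher, none at 2-fold, and their median was -0.03. These are 5.26% and 10.5% of the 76 genes, against 13% lower and 14.5% higher among all named genes, and the counts per list below are to be read beside the same shares. Without liver 4 the higher count was 3, without liver 1 the lower count was 2, and with the processed signals or the deposited table the lower count was 10. Of the ligands and their secretion factors, 19 of 25 were tested, 0 passed as lower and 3 as higher, with a median of 0.02. Wnt1 passed at 0.45 ± 0.06, Wnt11 at 0.45 ± 0.28 and Rspo3 at 0.25 ± 0.10 (SD, n = 5 each; limma adjusted p = 0.0013, 0.0155 and 0.0157), and the latter 2 were lost without liver 4 (adjusted p = 0.0545 and 0.0539). With the processed signals Wnt1 stood at 0.94 and Rspo3 at 0.43. Wnt2 and Wnt9b, the Wnts of the central vein, read -0.01 ± 0.26 and -0.03 ± 0.23, and Wls, which escorts Wnts out of the cell, -0.17 ± 0.14, none of which passed (n = 5 each). Of 10 sinusoidal endothelial markers, 5 passed as lower and 0 as higher, with a median of -0.30. Among Kupffer cell markers 7 of 9 passed as lower (median -0.36), and among hepatocyte markers 3 of 6 passed as higher, 2 of them at 2-fold or more (median 0.59). Rspo3 was above the reference in 5 of 5 livers. The part of cell content in these ratios, and in those of the 10 genes, was not tested.

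Among receptors, 14 of 17 were tested, 2 passed as lower and 1 as higher, with a median of -0.07. Ror1, a receptor tyrosine kinase for Wnt5a, passed at 0.67 ± 0.30, Fzd8 at -0.48 ± 0.23 and Ryk at -0.24 ± 0.10 (SD, n = 5 each; limma adjusted p = 0.0037, 0.0077 and 0.0422). The Ryk call was lost in 7 of 15 alternatives, including every omission of a single liver, with adjusted p up to 0.118. Of the destruction complex and Dishevelled genes, 15 of 16 were tested, 0 passed as lower and 3 as higher, with a median of -0.10. Axin1, the paralog of Axin2 in the destruction complex, passed at 0.80 ± 0.27 (SD, n = 5; limma adjusted p = 0.0011) and was above the reference in all 5 livers, at 1.09, 0.84, 0.36, 0.83 and 0.88. Apc passed on its brightest probe at 0.50 ± 0.37 (SD, n = 5; limma adjusted p = 0.0207), but its 3 other tested probes read between -0.43 and 0.00, so the gene's direction differs between probes. Its call was also lost without liver 2, 3 or 4 and with median centring, with adjusted p up to 0.0845. The third was Fbxw11 at 0.33 ± 0.14 (SD, n = 5; limma adjusted p = 0.0167), lost without liver 3 or 4 and with median centring, where it stood at 0.20 (adjusted p up to 0.309).

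Of 14 TCF/LEF factors and their partners, 12 were tested, 2 passed as lower and 0 as higher, with a median of -0.14. On the brightest probe of each gene the mean was below 0 for 12 of 12, beside 53.2% of all tested named genes. Over the alternatives, which kept that probe, the count was between 10 and 12. Pygo2 was nearest to 0, at -0.0015, and a second Tcf7 probe read 0.09, beside -0.13 on the brightest. Tle4, a co-repressor of TCF factors, passed at -0.56 ± 0.08 (SD, n = 5; limma adjusted p = 0.0013), and in all 15 alternatives. Tcf7l2, the main TCF factor of hepatocytes, passed at -0.33 ± 0.26 on its brightest probe (SD, n = 5; limma adjusted p = 0.0416), with 2 other probes between -0.20 and -0.04, and lost the call without liver 1, 2, 4 or 5 (adjusted p up to 0.118). Among secreted and feedback inhibitors, 16 of 20 were tested, 0 passed as lower and 1 as higher, with a median of 0.02. It was Sfrp1, a secreted Frizzled-like decoy, at 0.28 ± 0.20 (SD, n = 5; limma adjusted p = 0.0447), a call lost whenever a liver was left out. Sp5, a target of beta-catenin that restrains the pathway and the most variable gene of the list, did not pass and read -0.86 in liver 2 against -0.20 to 0.47 in the other livers. Liver 2 was the lowest for 4 and the highest for 6 of the 16 inhibitors, Sfrp1 among the latter.

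**Figure D4:**
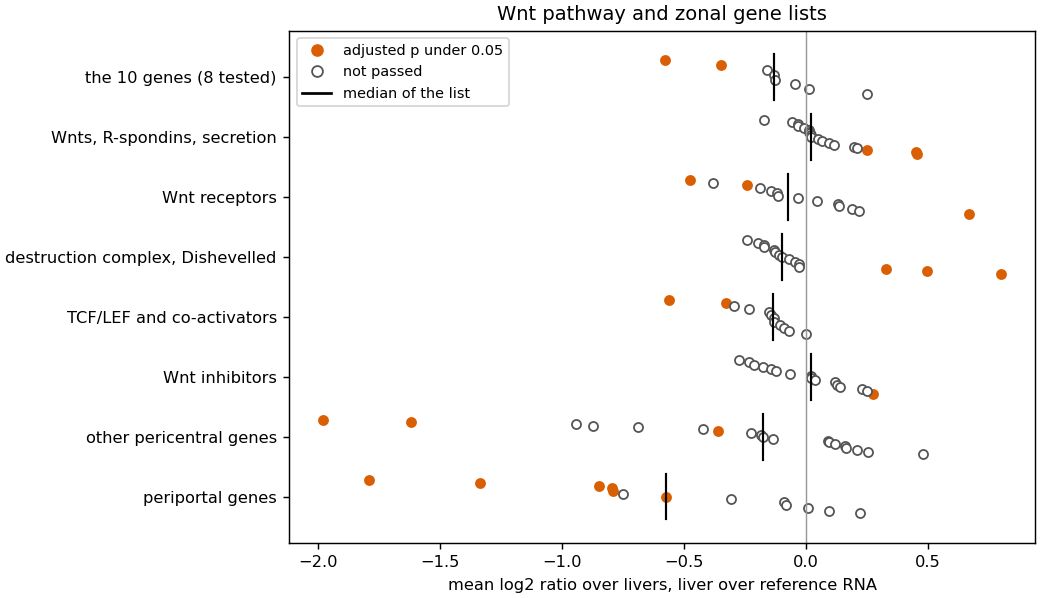
Mean log2 ratio of liver over reference RNA for the tested genes of each list, a point per gene, filled where the limma adjusted p was under 0.05, with a bar at the list's median. The Wnt pathway lists lie within about 1 log2 unit of 0 with medians between -0.14 and 0.02, and the periportal list has the lowest median, -0.58.

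Zonal genes outside the pathway were compared by counts. Of 22 other pericentral genes, 19 were tested, with a mean below 0 for 11 and above 0 for 8. Among the 19, 3 passed as lower and 0 as higher, and the median was -0.18. That lower count depended on the processing: it was 10 with outlier spots kept, 8 in the deposited table, 7 with median centring, 6 with the processed signals or with eBayes without its trend and robust options, 5 with the stricter filter or with probes averaged, and between 2 and 5 when a liver was left out (5 without liver 3). Gstm3, a glutathione transferase, stood at -1.98 ± 0.40 and Cyp2a5, a coumarin hydroxylase, at -1.62 ± 1.05 (SD, n = 5 each; limma adjusted p = 0.0001 and 0.0202), and Cyp2e1, the ethanol-oxidising P450, at 0.12 ± 0.14 (SD, n = 4) without passing. The 2 highest genes of the list were Cyp2c29, at 0.48 ± 0.82 (SD, n = 4), and Nr1i3, at 0.25 ± 0.82 (SD, n = 3). Neither passed (limma adjusted p = 0.277 and 0.580). The Cyp2a5 call was lost without liver 5 and with median centring (adjusted p = 0.0613 and 0.0654). Cyp2a5 had its lowest value in liver 1, at -3.16, and its highest in liver 4, at -0.39, as Rhbg did. Of 18 periportal genes, 13 were tested, 6 passed as lower and 0 as higher, with a median of -0.58, and G6pc, glucose-6-phosphatase, was lowest at -1.79 ± 1.03 (SD, n = 5; limma adjusted p = 0.0134), a call lost without liver 1 (adjusted p = 0.0665). The periportal lower count was between 4 and 7 in all alternatives, so which of both lists had more genes passing as lower differed between settings. The shares over all named genes were 13% lower and 14.5% higher, and no test of a difference between the lists was made.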

How the data were processed

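The authors extracted spot intensity values with Agilent Feature Extraction (version 11.5.1.1 in the file headers), and each deposited file gives a spot's median signal and local background per channel before normalization. The deposited files also hold processed intensities and their log10 ratio, and the authors deposited a table of log2 ratios, and 99.6% to 99.7% of its values per array match the log2 ratio of processed intensities to within 0.001. Signals printed are background-subtracted values as deposited.

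In limma 3.58.1 under R 4.3.3, background was corrected with normexp (offset 50) and each array normalized by loess. Control and outlier-marked spots had weight 0 there and were then dropped, and spots of a probe were averaged. Testing a probe required 3 or more arrays with a channel well above background, and 3 or more values. The mean log2 ratio was tested against 0 (two-sided, intercept-only model, eBayes with its trend and robust options, Benjamini-Hochberg over 31885 probes), and a gene passed at adjusted p under 0.05. The spread test is a one-sided F test against the prior variance. A gene is counted by its brightest tested probe. The fit was tested on simulated data.

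Probes were named through RefSeq identifiers, 24375 of 41174 with a symbol. Array coordinates are left out because their build, per the file headers, is mm8. All members are named, and of each list the 2 highest and 2 lowest genes and the most variable are eligible for naming. Rspo3, Ryk, Fbxw11, Wnt2, Cyp2e1 and Cyp1a1 were named outside that rule, after their values were seen. Members and lists were chosen with earlier results of these data known. Alternatives changed background correction, normalization, filter, outlier spots, probe choice, variance prior and samples, as the closing section gives.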

Additional observations from a re-analysis of the deposited data

Results flagged for a closer look

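In 3 of 43 probes looked at, one liver stood far from the other 4 relative to the range of the group. Chance flags about 1 in 20 such groups of values when they are not selected. Some of these probes were picked for a large spread or an extreme mean, so that rate is not theirs. Rnf43 read -0.77 in liver 2 and between -0.11 and 0.14 in the other livers. The second Slc1a2 probe read 0.24 in liver 4 and between -0.36 and -0.28 elsewhere. Nqo1 read -0.65 in liver 2 and between -0.41 and -0.32 elsewhere. All 3 values come from a single spot per array.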

How the results depend on the processing

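Of the 10 tested member probes, Rhbg and 5 others kept their side of the threshold in every alternative run, and no call reversed. The count of members passing as lower, 2 of 8, was 4 in the deposited table and 1 with the probes of a gene averaged, and between 1 and 2 when a replicate was left out. The count passing as higher, 0, was between 0 and 1 when a replicate was left out. The count lower at 2-fold or more, 0, was 1 with outlier spots kept and 1 in the deposited table. Over the 5 Wnt pathway lists the lower count, 4, was 10 with processed signals and 10 in the deposited table, and between 2 and 4 with a replicate left out, and the higher count, 8, was between 3 and 7 there. The count of members past the spread test, 0, was 1 with median centring. The cause of these shifts was not tested, beyond that fewer samples, or more usable spots, enter some of them. The orders of livers under 7 settings were compared after seeing the data. A slide or scan block could not be fitted, since each of 5 slides holds 1 array and all were scanned together. No paired analysis was possible because the 5 samples form 1 group. Low signal limits Axin2, Znrf3 and Rnf43. Dim list genes that passed include Nqo1, Rspo3 and Wnt1, with liver signals of 19.0 to 80.7, 38.2 to 115 and 61.6 to 176.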
